A study of Mus musculus with 3 samples.

Results

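The genes described here are 47 control genes of the cell cycle: cyclins, cyclin-dependent kinases (CDKs) and their inhibitors, phosphatases and inhibitory kinases, the E2F and DP transcription factors, the retinoblastoma pocket proteins and their partners. They were chosen by symbol from knowledge of the pathway, with earlier results of these data known. All 47 were matched among the 50600 genes of the deposited tables. RNA came from primary T-helper 1 (Th1) cells of C57BL/6NJ mice, obtained by differentiating CD4 T cells, and 3 libraries made up the only group analysed here. They are labelled biological replicates 1, 2 and 3, but share a donor entry, and separate animals or cultures are not named. A p-value between libraries therefore describes how these samples differ, and part of that may be technical. Sex was not collected and age is given as unknown; the file headers carry 24 hr. Values are counts of read pairs on the annotated strand, in the order of replicates 1, 2 and 3, and TPM (counts per exon length, scaled to the same sum in each library) as mean ± SD over the 3 libraries (n = 3).

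In a dividing T cell, mitogen signals raise D-type cyclins, which bind CDK4 and CDK6 and phosphorylate the retinoblastoma protein. E2F factors, which bind DNA together with a DP partner, are then released and transcribe the genes of DNA synthesis, among them cyclin E. Later genes of G2 and mitosis are transcribed through the MuvB complex with B-Myb and FoxM1, which acts at a promoter element called CHR, often beside NF-Y boxes, while in resting cells MuvB with E2F4 and a pocket protein (the DREAM complex) holds the same genes silent.

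The promoter stretches below are shown because they hold the elements that these factors are known to use. RefSeq promoters (GRCm38.p6, the build called mm10) were held for 34 of the 47 members. The motifs searched, on both strands of the 250 bases before the first-listed start, were the E2F motif (TTTCCCGC, TTTGCCGC, TTTCGCGC or TTTGGCGC), the CHR (TTTGAA or TTCGAA) and the NF-Y box (CCAAT); no match overlaps another in the stretches printed. RefSeq and GENCODE starts can differ, as they do for E2f3. Capitals mark the matches, and each stretch is the 120 bases before the start, on the strand of the gene.
Cdk1, chr10:69352913-69353032, minus strand: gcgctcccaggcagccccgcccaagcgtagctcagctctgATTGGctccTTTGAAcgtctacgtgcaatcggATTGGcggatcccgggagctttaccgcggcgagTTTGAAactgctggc
Ccnb2, chr9:70421555-70421674, minus strand: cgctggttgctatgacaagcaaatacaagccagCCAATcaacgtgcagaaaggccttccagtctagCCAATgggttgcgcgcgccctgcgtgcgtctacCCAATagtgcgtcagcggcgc
Ccnf, chr17:24251410-24251529, minus strand: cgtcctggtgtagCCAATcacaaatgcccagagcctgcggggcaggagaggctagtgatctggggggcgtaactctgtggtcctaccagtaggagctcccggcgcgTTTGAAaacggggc
E2f3, chr13:29986064-29986183, minus strand: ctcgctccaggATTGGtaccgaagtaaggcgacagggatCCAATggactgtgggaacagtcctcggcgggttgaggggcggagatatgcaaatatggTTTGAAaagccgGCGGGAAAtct
Rbl1, chr2:157204535-157204654, minus strand: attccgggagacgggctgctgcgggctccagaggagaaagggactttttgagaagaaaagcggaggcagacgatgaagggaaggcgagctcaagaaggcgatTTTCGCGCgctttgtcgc
Tfdp1, chr8:13338631-13338750, plus strand: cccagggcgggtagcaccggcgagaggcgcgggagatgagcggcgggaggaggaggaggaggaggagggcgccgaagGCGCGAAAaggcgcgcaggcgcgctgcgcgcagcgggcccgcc

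An E2F motif stood in 7 of the 34 promoters (20.6%), against 1.91% of all 27025 promoters of the same length in the table. A CHR stood in 10 of 34 (29.4%, against 17.4% of all), and 12 of 34 held the NF-Y box at least 2 times (35.3%, against 10.5% of all). Of the 34 promoters, 6 held at least 2 NF-Y boxes and a CHR, those of Cks1b, Cdk1, E2f3, Ccnb2, Cdkn3 and Ccnf (17.6%, against 1.82% of all). The letters are a description of the window and not a measure of binding, and these 6 genes spanned a wide range of levels, from 3.49 TPM for Cdkn3 to 64.7 TPM for Cks1b.

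**Figure D1:**
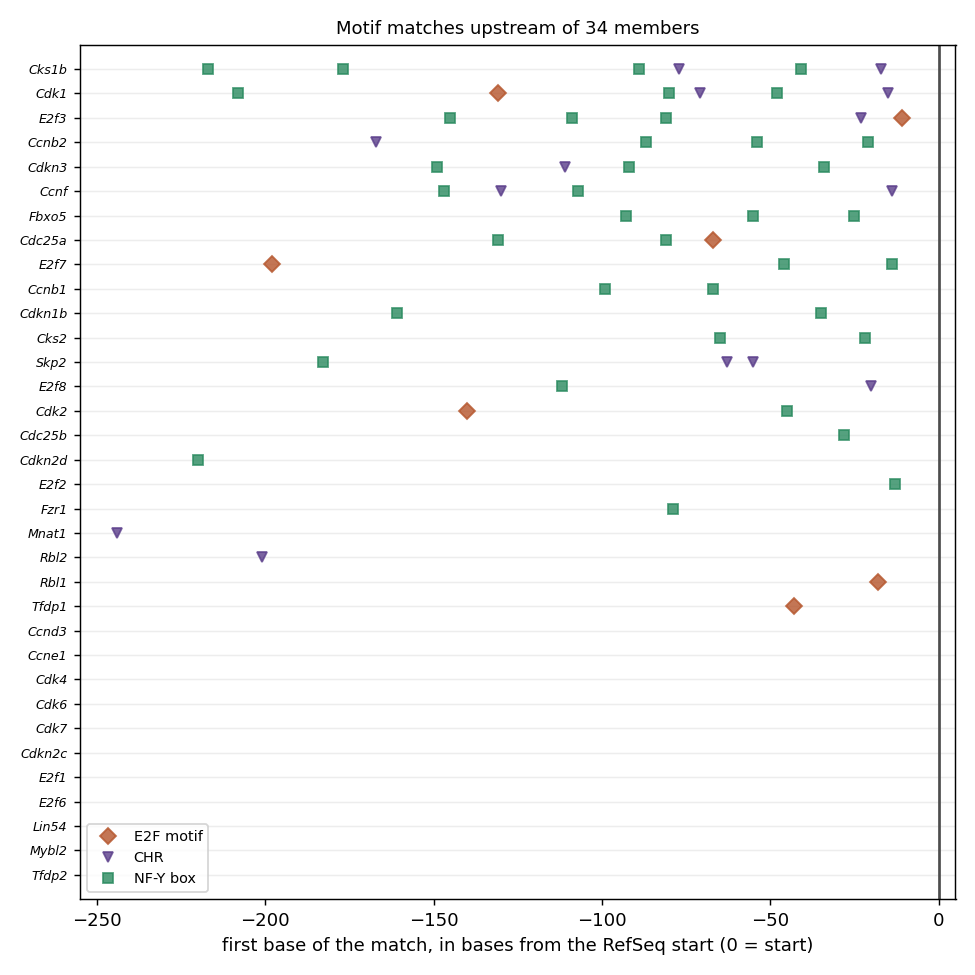
Positions of motif matches in the 250 bases before the RefSeq start of 34 members, with bases from the start on the x axis and members down the page; diamonds are E2F motifs, triangles CHRs and squares NF-Y boxes. Cks1b, Cdk1 and E2f3 at the top have the most matches, and members from Ccnd3 down have none.

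Nearly the whole set was counted at a measurable level. Of the 47 members, 46 reached 1 TPM in every library, where 41.2% of the 21764 protein-coding genes did. At 5 TPM 34 members did, and no share over protein-coding genes was computed at that level. Because members were chosen with earlier results of these data known, these counts are a description and not a test. Of 72 further genes of the pathway, 59 reached 1 TPM in every library. The median member stood at 13.5, 8.5 and 13.3 TPM in the 3 libraries (11.7 ± 2.81), near the median of tested protein-coding genes (10.3 ± 2.36 TPM). The range ran from Cdk4 at 371 ± 2.22 TPM to Tfdp2 at 0.865 ± 0.0108 TPM, so single members differed by far more than the replicates did.

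Total counts were 3553547, 2945353 and 3369468, of which the members took 11802, 8336 and 10632. T cell markers were present: all 8 on the list, Cd3e and Cd4 included, reached 1 TPM in every library. Of 6 Th1 markers 3 did: Il12rb2 with 90, 105 and 114 counts (opposite Serbp1), Stat4 with 52, 23 and 33, and Tbx21 with 15, 11 and 8. The others did not: Il18r1 had 17, 4 and 6 counts, Ifng 2, 2 and 1, and Cxcr3 2, 1 and 1. Of 31 markers of CD8 T, B, NK and myeloid or erythroid cells, 5 reached 1 TPM in every library and 18 had no count. The highest, Csf1r, had 1429, 1418 and 1460 counts and lies opposite Hmgxb3. The rest of the 5 share no exon base: Cd8b1 (10.4 ± 2.64 TPM), Cd79a (7.34 ± 0.653 TPM), Cd68 (4.97 ± 3.67 TPM) and Xcr1 (1.18 ± 0.23 TPM). Of the other macrophage markers, Lyz2, Itgam and Mertk had 0 counts in every library and Adgre1 had 0, 1 and 1. In bulk RNA, fewer cells of a type and less RNA per cell cannot be told apart. What the strand of counting contributed to these marker counts was not tested.

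The counts depend on strand. They were made with strand option 1 of featureCounts, and whether that option matches the strand of the libraries was not tested. If it does not, counts on members that share no exon base, such as Cdk1, Ccne1 and Tfdp1, would not measure their transcripts. Counts on sharing members would then include transcripts of the opposite gene, and counts on the opposite gene those of the member. All levels given here, and their order, hold for counts on the annotated strand only. Because this was not tested, a count on a member that shares exon bases with an opposite-strand gene was not assigned to that member alone. The shared stretch ran from 4 bases for Fzr1 to 1585 for Rbl2. Such sharing was found for 18 of the 47 members, where 22.1% of protein-coding genes, 35.3% of tested protein-coding genes and 42.7% of all tested genes had it. These 18 held 68.3, 76.5 and 70.9% of the member counts (71.9% ± 4.19), as sharing genes did of all counts (71.9% ± 4.96), and Cdk4, Ccna2 and Ccne2 alone held 45.8% ± 6.05 of the member counts. Below, the opposite gene is named beside each such member.

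**Figure D2:**
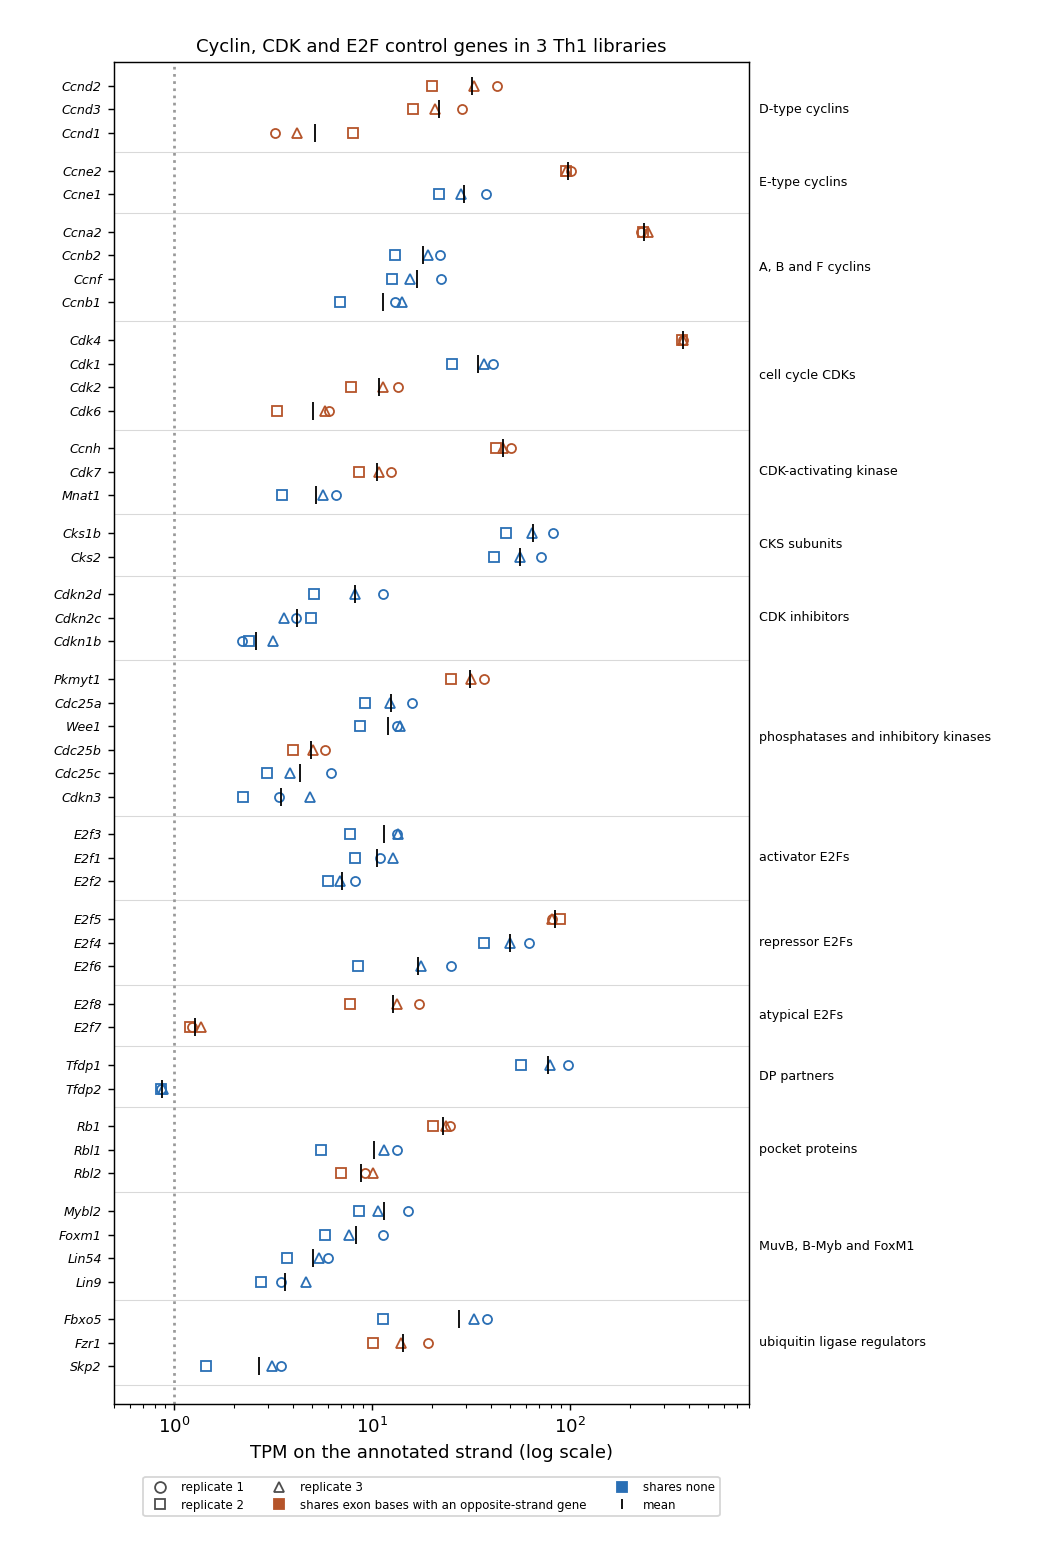
TPM (log axis) of the 47 members in each Th1 library, grouped by role; circles, squares and triangles are replicates 1, 2 and 3, the bar is their mean, the dotted line is 1 TPM, and orange marks members that share exon bases with an opposite-strand gene. Cdk4 and Ccna2 stand highest, with TPM values that nearly coincide between replicates, while most blue members have replicate 2 lowest.

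Among D-type cyclins, which couple growth signals to CDK4 and CDK6, Ccnd2 was counted highest and Ccnd1 lowest. Ccnd2 had 768, 330 and 579 counts (32 ± 11.5 TPM), against 2960, 3003 and 3066 on Gm43126, an antisense gene that shares 372 of its untranslated bases, and 9, 16 and 12 on 9330179D12Rik, which shares 368 others. Ccnd3 had 477, 249 and 343 counts (21.9 ± 6.24 TPM) and was below Ccnd2 in each library, although their ranges over libraries overlapped. Its opposite gene Bysl, which shares 361 bases, had 4142, 4428 and 4414. Ccnd3 also has a processed pseudogene, Ccnd3-ps, of 96.3% identity over 881 bases, at 0 counts. Ccnd1 (mm10 chromosome 7, 144929931 to 144939925) had 29, 66 and 37 counts (5.15 ± 2.53 TPM), with LTO1 opposite over 1100 bases of its untranslated region at 12, 14 and 17 counts. Its library values did not overlap those of Ccnd3, and it was the member with the most counts in replicate 2 relative to the other libraries.

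The cyclins of S phase and mitosis spanned a range from 237 to 11.4 TPM. Ccna2, whose product serves CDK2 and then CDK1 (chromosome 3, 36564865 to 36572150), had 1771, 1669 and 1895 counts (237 ± 10.4 TPM), against 4504, 4516 and 4293 on Exosc9, an exosome subunit gene that shares 510 bases tail to tail. Ccne2, a partner of CDK2 at the start of S phase, had 668, 585 and 622 counts (97.2 ± 2.94 TPM), and Ints8, which shares 609 bases, had 1236, 1046 and 1067. The other E-type cyclin, Ccne1, shares no exon base and had 191, 102 and 140 counts (29.3 ± 7.98 TPM); Ccne2 was 2.66 to 4.37 times as high within a library. The mitotic cyclin gene Ccnb2 had 64, 35 and 55 counts (18.1 ± 4.56 TPM) and Ccnf, which encodes an F-box protein, stood at 16.8 ± 4.96 TPM. Ccnb1 had 105, 51 and 112 counts and the lowest mean of this group per exon length (11.4 ± 3.93 TPM), and it has a pair of processed pseudogenes of 99.2% and 98.1% identity, both at 0 counts; the counts of all 3 are uncertain where reads could align to more than 1 of them. Neighbours among Ccnb2, Ccnf and Ccnb1 overlapped between libraries.

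Of the kinases, Cdk4 was counted highest in every library. Cdk4 (chromosome 10, 127063534 to 127067920) had 2309, 2099 and 2253 counts (371 ± 2.22 TPM), and its opposite gene Tspan31, which shares 641 untranslated bases tail to tail, had 135, 175 and 196. Cdk1, the kinase of mitosis, shares no exon base and had 383, 218 and 339 counts (34.3 ± 8.07 TPM). Within libraries Cdk4 was 9.16 to 14.6 times as high as Cdk1, a comparison of a sharing with a non-sharing gene. Cdk2, the kinase of S phase entry, had 159, 85 and 132 counts (10.9 ± 2.85 TPM), against 467, 459 and 465 on the melanosome gene Pmel, with which it shares 34 bases head to head. Cdk1 was 3.04 to 3.24 times as high as Cdk2, a ratio that held closely over the libraries (3.17 ± 0.115). Cdk6, which like CDK4 binds D-type cyclins, had 162, 81 and 151 counts and was lowest per exon length (5.06 ± 1.52 TPM). Its antisense gene Gm17590 had 284, 280 and 278. A pseudogene of Cdk6, Gm16505, of 96.1% identity over 233 bases, had 0 counts. All 4 kinases stood apart from their neighbours in every library.

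The CDK-activating kinase, which phosphorylates the CDKs and is also part of transcription factor TFIIH, was counted unevenly over its 3 subunits. Cyclin H, from Ccnh, had 297, 230 and 265 counts (46.1 ± 4 TPM), with 12 bases shared with Rasa1 at 111, 55 and 67. The catalytic subunit gene Cdk7 had 180, 114 and 153 counts (10.6 ± 1.95 TPM; Ccdc125 opposite, at 41, 32 and 37), and the assembly factor gene Mnat1 had 67, 33 and 57 (5.24 ± 1.56 TPM). The 3 did not overlap. The small CDK-binding subunits did not separate: Cks1b had 175, 94 and 136 counts (64.7 ± 17 TPM) and Cks2 had 94, 50 and 72 (56.2 ± 15.1 TPM). Their ratio within libraries nonetheless varied only from 1.14 to 1.16. Cks2 has a pair of processed pseudogenes over 240 bases, Gm12891 (98.3% identity) with 3, 1 and 7 counts and Gm15452 (100%) with 0.

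Genes of CDK inhibitors and of the enzymes that set the inhibitory phosphorylation of CDKs were mostly low. Cdkn2d, which encodes an inhibitor of CDK4 and CDK6, had 34, 14 and 24 counts (8.2 ± 3.14 TPM), Cdkn2c of the same family stood at 4.2 ± 0.66 TPM, and Cdkn1b, which encodes p27, had 19, 19 and 27 counts (2.59 ± 0.518 TPM). None of these 3 shares an exon base. Pkmyt1, whose kinase restrains CDK1, had 143, 89 and 120 counts (31.1 ± 5.97 TPM) and lies opposite Paqr4, at 965, 953 and 902, over 313 bases. The other inhibitory kinase gene, Wee1, stood at 12 ± 2.82 TPM. Among the activating phosphatases Cdc25a was highest at 12.5 ± 3.4 TPM, Cdc25b had 41, 26 and 35 counts (4.93 ± 0.902 TPM, with Spef1 opposite at 207, 191 and 196) and Cdc25c stood at 4.35 ± 1.7 TPM. Cdkn3, a phosphatase that removes the activating phosphate of CDKs, had 5, 3 and 7 counts (3.49 ± 1.32 TPM) and was the only member too low for the test between libraries. Cdc25a and Wee1 overlapped, as did Cdc25b, Cdc25c and Cdkn3.

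The activator E2F genes stood close together, and E2f4 and E2f5 of the repressor group were above them in every library. E2f3 had 121, 65 and 121 counts (11.5 ± 3.26 TPM), E2f1 stood at 10.6 ± 2.31 TPM and E2f2 had 76, 51 and 63 counts (7.02 ± 1.11 TPM), with overlapping libraries and no shared exon bases. Of the repressors, E2f4 stood at 49.7 ± 12.9 TPM with 291, 157 and 229 counts. E2f5 had 275, 279 and 271 counts (84 ± 4.77 TPM); it shares 26 bases with 1810022K09Rik, which had 75, 49 and 77. E2f6, a repressor that binds no pocket protein, had 115, 36 and 80 counts (17.1 ± 8.26 TPM), and the 3 repressor genes stood apart from each other. Of the atypical repressors, which bind DNA without DP, E2f8 had 179, 74 and 135 counts (12.8 ± 4.78 TPM; Gm2788 opposite, at 982, 878 and 899), and E2f7 had 21, 19 and 23 (1.27 ± 0.0871 TPM; 1700020G17Rik opposite, at 73, 84 and 82).

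The DP partners differed widely. Tfdp1 had 683, 362 and 542 counts (77.8 ± 20.8 TPM), and Tfdp2 had 23, 21 and 23 (0.865 ± 0.0108 TPM), so that Tfdp1 was 65.9 to 114 times as high per exon length. The exon length is that of all annotated isoforms joined, 14029 bases for Tfdp2 and 3670 for Tfdp1, which lowers the TPM of a gene that uses few of its exons. Tfdp1 has a processed pseudogene of 97.6% identity, Gm7390, with 4, 1 and 1 counts. Among pocket proteins Rb1, the retinoblastoma gene, had 284, 213 and 265 counts (22.9 ± 2.37 TPM), with Rcbtb2 opposite at 382, 293 and 332 and Lpar6, which lies inside Rb1, at 15, 7 and 8. Rbl1, which encodes p107, had 153, 58 and 129 counts (10.2 ± 4.12 TPM). Rbl2, which encodes p130, the pocket protein of resting cells, had 133, 92 and 143 (8.78 ± 1.63 TPM), with Aktip opposite at 269, 215 and 230 and Gm45464 at 401, 402 and 387; Rb1 stood apart from both, and they overlapped.

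Per exon length, the activators of late genes were lower than Fbxo5, the highest of the ubiquitin ligase regulators, in every library. Mybl2, the gene of B-Myb, had 134, 70 and 93 counts (11.5 ± 3.36 TPM), Foxm1 stood at 8.27 ± 2.89 TPM, and the MuvB subunit genes Lin54 and Lin9 at 5.04 ± 1.16 and 3.63 ± 0.954 TPM, the last with 48, 35 and 63 counts. Neighbours in this order overlapped, yet Mybl2 exceeded Foxm1 in each library by 1.33 to 1.5 times. Fbxo5 (chromosome 10, 5799160 to 5805600), whose product EMI1 inhibits the anaphase-promoting complex, had 146, 40 and 123 counts (27.5 ± 14.2 TPM). Fzr1, which encodes CDH1, an activator of that complex, averaged 14.4 ± 4.6 TPM from 164, 79 and 117 counts. Its opposite gene Mfsd12, sharing 4 bases, had 60, 56 and 68. Skp2, whose product marks p27 for destruction, had 52, 20 and 46 counts (2.68 ± 1.08 TPM).

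In the 21 pairs of a member and an opposite gene, 14 were tail to tail, 4 head to head and 3 had the opposite gene inside the member. The opposite gene had the more counts in 13 of the 21. Replicate 2, the library with the smallest total, held the fewest counts of 16 of the 18 sharing members, all but Ccnd1 and E2f5. It also held the fewest counts of 27 of the 29 members without shared bases. For these tallies of raw counts no share over all tested genes was computed. As CPM (counts scaled by the library total), replicate 2 exceeded the mean of the others for 6 of the 18 sharing members and in 16 of the 21 pairs for the opposite gene, where 52.7% of tested sharing genes did.

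**Figure D3:**
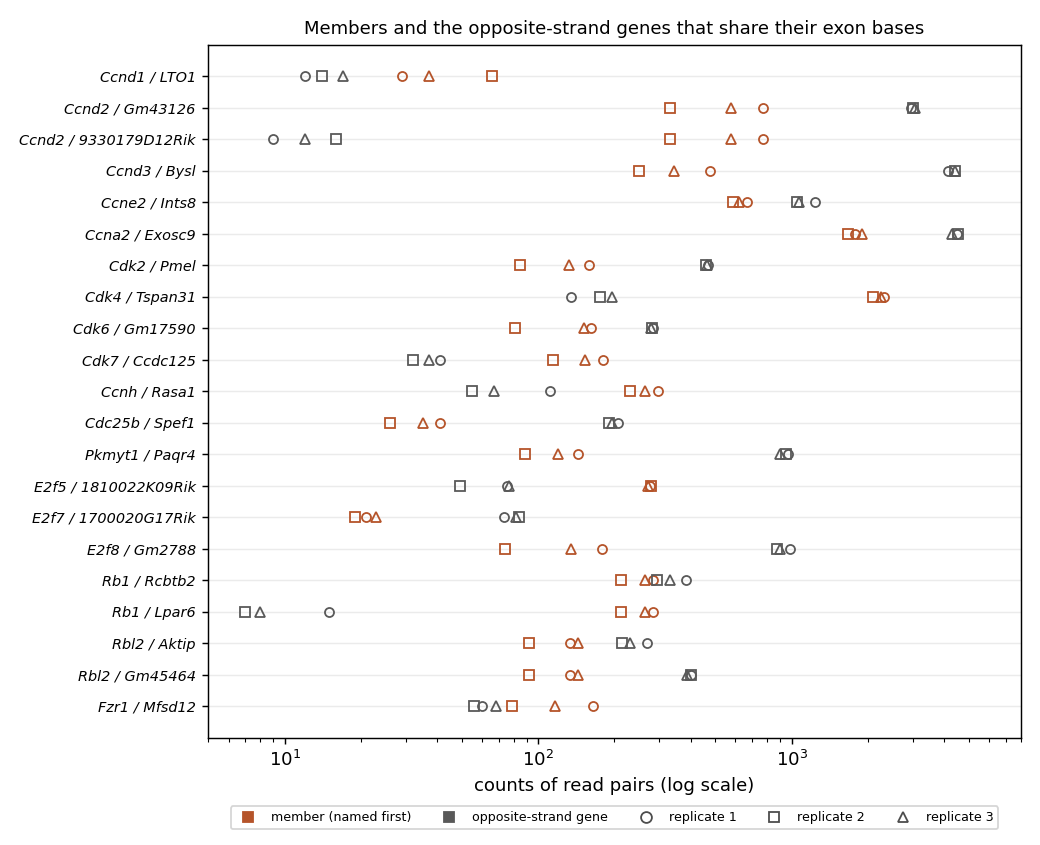
Counts (log axis) on each member, in orange, and on the opposite-strand gene that shares its exon bases, in grey, for 21 pairs in 3 Th1 libraries; symbols mark replicates 1, 2 and 3. For Ccnd2 with Gm43126, Ccnd3 with Bysl and Cdk2 with Pmel the grey points nearly coincide where the orange ones spread, and Cdk4 lies far above Tspan31.

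Replicate 2 stood apart, and differently for members with and without shared exon bases. The CPM in replicate 2 relative to the mean of replicates 1 and 3 had a median of 0.806 over the 18 sharing members, from 0.556 for E2f8 to 2.34 for Ccnd1. Over the 29 members without shared bases the median was 0.709, from 0.35 for Fbxo5 to 1.39 for Cdkn2c. All tested genes of these kinds had medians of 1.03 and 0.693, so members without shared bases lay near their background and sharing members lay below theirs. Of the 4362 tested sharing genes used here and below, 3044 are protein-coding, and this ratio was not taken over those alone. Above 1 were 2 of the 29 members without shared bases (6.9%, against 10.9% of such tested genes). On the log2 scale, at library sizes scaled by the trimmed mean of M values (TMM), the median shift of members without shared bases was 0.14, -0.10 and 0.01 in replicates 1, 2 and 3, close to that of all tested genes without shared bases (0.10, -0.12 and 0.03). Sharing members had -0.04, 0.02 and -0.04, where all tested sharing genes had -0.15, 0.25 and -0.07. The part of strand, depth or RNA quality in this difference was not tested.

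**Figure D4:**
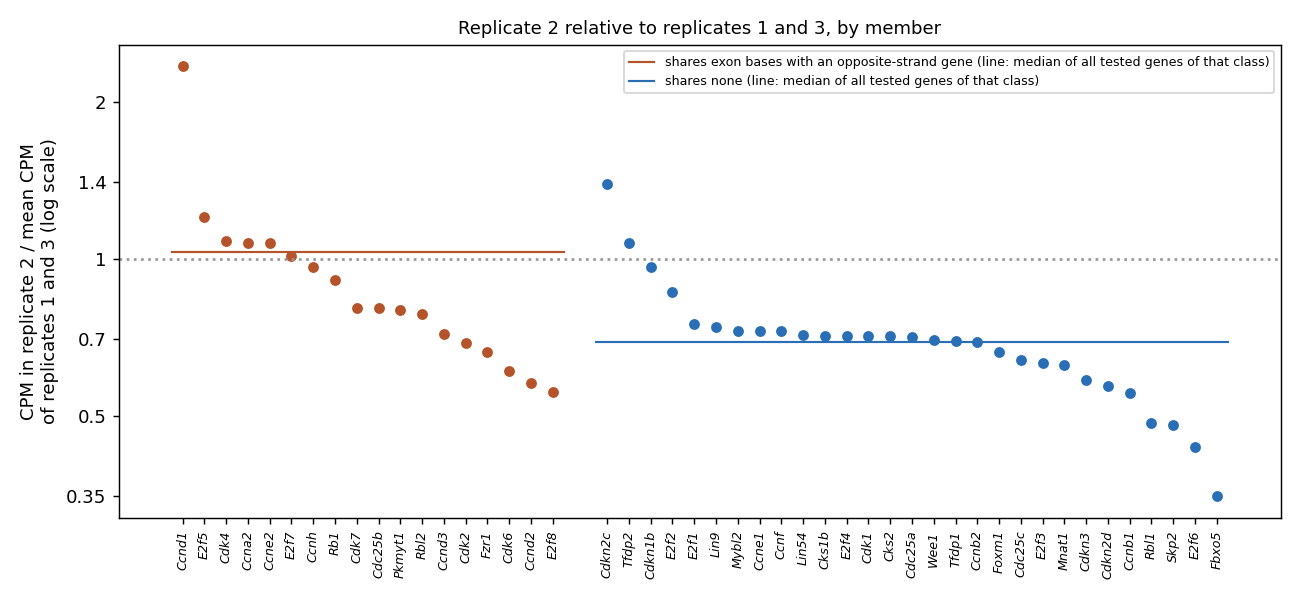
CPM in replicate 2 divided by the mean CPM of replicates 1 and 3 (log axis) for each member, sharing members on the left in orange and others on the right in blue; each line is the median of all tested genes of that kind, 1.03 and 0.693. Many blue members lie near their line, and Ccnd1 and Fbxo5 are the extremes.

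Between libraries, 12 of the 46 tested members varied beyond counting error at TMM-scaled library sizes, where 35.6% of all 10216 tested genes did, a higher share than among the members (chi-square test against Poisson error, Benjamini-Hochberg adjusted p under 0.05). Of the 18 sharing members 8 varied (44.4%, against 53.0% of sharing genes), and of the 28 others 4 varied (14.3%, against 22.7%). In replicate 2, 5 of the 12 were highest (41.7%, against 63.0% of all varying genes): Ccnd1, E2f5, Cdk4, Ccne2 and Ccna2, all of them sharing members. Lowest there were 6 (50.0%, against 30.9% of all varying genes): Ccnd2, E2f8, Tfdp1, Rbl1, E2f6 and Fbxo5. Among varying genes, 5 of 8 sharing members were highest in replicate 2, against 86.3% of all varying sharing genes, and 4 of 4 others were lowest there, against 66.6%. The last of the 12, Ccnd3, was highest in replicate 1 and lowest in replicate 3. With TMM taken within sharing and non-sharing genes separately, Ccna2 was highest and Tfdp1 lowest in replicate 3, and Ccnd3 was lowest in replicate 2 (chi-square test, adjusted p = 5.40e-09), as it was at total counts.

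The greatest contrast between libraries was that of Ccnd1, at 7.39, 26.4 and 10.6 TMM-scaled CPM, a ratio of 3.58 from highest to lowest (chi-square test, adjusted p = 1.91e-09). Fbxo5 followed at 37.2, 16 and 35.2 (ratio 2.32, chi-square test, adjusted p = 2.71e-05), with replicate 2 alone low. E2f6 stood at 29.3, 14.4 and 22.9 (ratio 2.03, chi-square test, adjusted p = 0.00313). Rbl1 stood at 39, 23.2 and 36.9 (ratio 1.68, chi-square test, adjusted p = 0.00906), again with only replicate 2 low. E2f5 was high in replicate 2 at 70, 112 and 77.6 (ratio 1.6, chi-square test, adjusted p = 3.19e-07). Its raw counts were nearly equal, and at total counts in place of TMM neither E2f5 nor Ccne2 passed. Cdk4 and Ccna2 had the smallest adjusted p of the 12 (chi-square test, adjusted p = 3.66e-32 and 1.34e-28), at ratios of 1.43 and 1.48. At total counts their ratios were 1.10 and 1.14, and both still passed. With the separate TMM, 10 members varied (against 26.8% of tested genes), 7 of them among the 12, and Cdk4, Ccne2, E2f5, Rbl1 and Tfdp1 did not pass. The 10 were 8 of 18 sharing members (44.4%, against 42.7% of sharing genes) and 2 of 28 others (7.14%, against 14.9%). When the edgeR common dispersion (a biological coefficient of variation of 0.179) was added to the counting error, Ccnd1 alone passed (chi-square test, adjusted p = 0.0453, against 0.0881% of all tested genes). That dispersion was estimated from the same 3 libraries, and the coefficient estimated for Ccnd1 itself was higher, at 0.258. Without replicate 2, 4 members passed, Ccna2, Ccnd2, Ccnd3 and Cdk4 (9.04% of tested genes did), and Ccnd1 did not (chi-square test, adjusted p = 0.425).

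**Figure D5:**
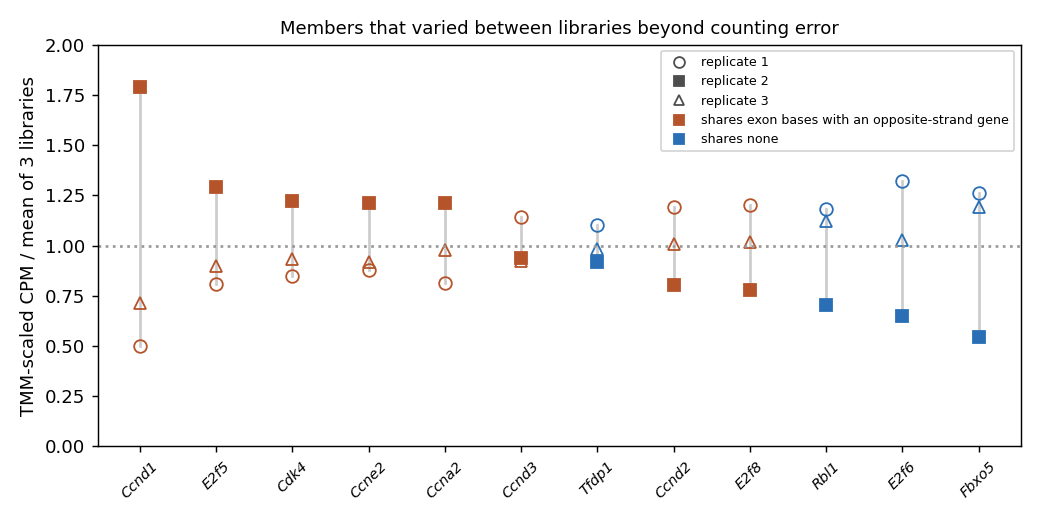
TMM-scaled CPM in each Th1 library divided by the mean of the 3 libraries, for the 12 members that varied beyond counting error; filled squares are replicate 2, open circles and triangles replicates 1 and 3. Replicate 2 is highest for the 5 sharing members on the left and lowest for the 6 from Tfdp1 to the right end.

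Other genes of the pathway were counted over a like range. Of 72 further genes in 6 lists, 59 reached 1 TPM in every library, and 20 of the 58 tested varied between libraries (34.5%, near the background of 35.6%). Other cyclins were led by Ccng1, a p53 target, with 602, 218 and 464 counts (65.5 ± 27.7 TPM), and by Ccnc, of the Mediator kinase module, at 42.5 ± 1.84 TPM (opposite Tstd3), while Ccna1 (opposite 4931419H13Rik) and Ccnb3 had 0 counts. Other CDK genes were led by Cdk17 at 104 ± 10.9 TPM (opposite Elk3) and Cdk11b at 89.2 ± 9 TPM, with Cdk14 and Cdk18 (opposite Gm29629) at 0. Among further inhibitor genes, Cdkn1a, which encodes p21, stood at 56 ± 18.2 TPM. Cdkn2aip, which encodes a binding partner of an inhibitor, stood at 6.72 ± 2.66 TPM (opposite E030037K01Rik), and Cdkn2a and Cdkn2b had 0 counts. A count of 0 allows up to 3 counts, or 0.844, 1.02 and 0.89 CPM in the 3 libraries, for counting error only.

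The remaining lists hold partners of the members. Of 7 DREAM, Myb and E2F partner genes, 5 reached 1 TPM in every library. Rbbp7, which encodes a histone-binding protein, stood highest at 109 ± 28.9 TPM (opposite Txlng), followed by Hcfc1, which encodes an E2F cofactor, at 43.5 ± 10.7 TPM. Of 21 ubiquitin ligase genes, 19 reached 1 TPM in every library; Cdc23, of the anaphase-promoting complex, had 3629, 3473 and 3309 counts (199 ± 11.5 TPM, opposite Kif20a) and Ube2s stood at 79.1 ± 3.42 TPM (opposite Rpl28). All 14 mitotic and checkpoint kinase genes reached 1 TPM in every library, led by Plk1 at 33.7 ± 11.2 TPM (opposite Gm44985) and Bub1b at 32.5 ± 6.86 TPM.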

How the data were processed

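Per gene, the authors deposited raw counts of read pairs, made with featureCounts 1.4.6-p4 on exons of GENCODE M13 with strand option 1, counting pairs with both ends aligned, per the file headers, on mm10 per the labels. The headers name a stranded pipeline; no aligner version was found in them or in the labels. The assay is labelled total RNA, while the library protocol named is for polyA-selected RNA. Computed here were TPM from counts and deposited exon length, CPM, symbols (GENCODE M21, 50376 of 50600 identifiers), shared exon bases from the deposited coordinates, and near-identical copies (blastn, transcripts of M21). Each gene passing edgeR's filterByExpr was tested by chi-square against Poisson error at TMM library sizes, Benjamini-Hochberg adjusted over 10216 genes. The test was also run on simulated counts. These held no difference between sharing and non-sharing genes, so that run cannot speak to such a difference in the data. With a single group no edgeR contrast exists. Alternatives were other library sizes, TMM within sharing and non-sharing genes, no filter, added dispersion, other thresholds and leaving out each replicate. Counts in every library were given at least for the highest and lowest member of each role, the 5 varying members with the greatest contrast and members with a protein-coding opposite gene; of other lists, the 2 highest and those at 0. Members and lists were chosen with earlier results of these data known. The sources name no molecular identifiers, so limits from counts cover counting error only. Software was R 4.3.3, edgeR 4.0.16, DESeq2 1.42.0 and Python 3.11.15.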

Additional observations from a re-analysis of the deposited data

How the results depend on the processing

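The number of members at 1 TPM in every library stayed within 1.5 times of 46 in every alternative run. The number varying between libraries was 24 with total counts in place of TMM, 1 with the edgeR common dispersion, and 4 to 12 when each replicate was left out; other alternatives gave 10 or 11. Relative to total counts, TMM moved all genes by -0.16, 0.22 and -0.07 (log2) in replicates 1, 2 and 3, and 971 of all tested genes varied without replicate 2, against 3642 with every library. Members sharing at least 10% of their exon length were 8 in place of 18. The median member stood at 31.5 CPM in place of 11.7 TPM. The share of member counts on sharing members was 63.9% with protein-coding opposite genes only and 66.3% of TPM. The shift of members without shared bases was 0.30 and -0.32 in replicates 1 and 2 with total counts. It was 0.04 and 0.12 in replicate 1 without replicates 2 and 3, and -0.06 and -0.12 in replicate 2 without replicates 1 and 3. In replicate 3 it lay between -0.04 and 0.06 when another replicate was left out, reversing without replicate 2. The causes were not tested. Depth limits the low members: Cdkn3 had at most 7 counts in a library. No paired analysis was possible because there is a single group.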
